A study of Homo sapiens with 4 samples.

Results

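The genes described here build, fill and bound the acidic lysosome: the subunits of the vacuolar proton pump (V-ATPase), the cathepsin proteases, and a small set of lysosomal membrane, cholesterol export and regulatory genes. They were taken by gene symbol, among genes with a probe set that names no other gene, as those whose symbol starts with ATP6V or ATP6AP, the cathepsins with a 1-letter suffix other than CTSG, and LAMP1, LAMP2, LAMP3, MCOLN1, TFEB, NPC1, NPC2 and SCARB2. This gave 47 of the 19775 genes on the table, each represented by its brightest probe set. Of the 47, 41 lay above the floor of 23.8 (the median of all scaled values, below which signals were not distinguished) on at least 1 array, and 32 lay above 100 on all 4 arrays. The other 6 (ATP6V1B1, ATP6V1G3, CTSL, CTSW, LAMP3 and the antisense entry ATP6V0E2-AS1) were below the floor on every array.

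The samples were 4 bulk RNA extracts of U937, an established human line of monocyte-like cells that the submitters call a lymphoma line, each hybridised to 1 Affymetrix Human Genome U133 Plus 2.0 array. The combination cells received 0.05% Sonazoid, an ultrasound contrast agent of gas microbubbles, together with ultrasound of 0.3 W/cm2 for 1 min. The ultrasound-only cells had the same 1 min exposure without Sonazoid, the Sonazoid-only cells had 0.05% Sonazoid without ultrasound, and control cells were left untreated. The treated cells were kept for 3 h at culture temperature before RNA was taken. Every group was 1 array, so there was no replicate, no test between groups and no p-value, and the number of arrays limits the precision; the cells of all groups came from 1 line. Of 10 measurable U937 and myeloid markers, 7 exceeded 100 on at least 1 array, and of 33 markers of other lineages 5 did (NKG7, CD79A, PAX5, COL1A1 and PECAM1).

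As background, the V-ATPase is a rotary pump. Its cytosolic V1 sector splits ATP and turns a rotor, and its membrane V0 sector carries protons into the lumen; many subunits exist as a ubiquitous form and tissue-restricted forms. The acid pH activates the cathepsins and the other hydrolases, and macrophage-lineage cells are rich in both. TFEB, a basic helix-loop-helix factor of the MiT/TFE family, switches on lysosomal genes through CACGTG-type sites when lysosomes are starved, damaged or blocked, and MCOLN1, the lysosomal calcium channel TRPML1, is both a TFEB target and a part of the signal that activates TFEB.

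The promoter stretches of 7 members are shown because they carry the site through which these genes are known to be co-regulated, and the values below show whether the carriers differed between the arrays. The motif TCACGTG was searched on both strands (reverse complement CACGTGA) in the 250 bases before and 50 after the start of each RefSeq promoter entry (GRCh38.p14). It contains the general E-box CACGTG, which other factors such as MYC and USF also bind. Of the 32 members with a RefSeq promoter, 9 held it (28.1%), against 909 of 15384 genes of the array (5.91%). The carriers were ATP6V0B, ATP6V0D1, ATP6V0E2, ATP6V1G1, CTSA, CTSD, CTSF, LAMP1 and MCOLN1, and LAMP1 had 6 sites, of which its stretch shows 5. ATP6V0E2 and CTSF are not printed. The ATP6V0E2 site lies before a start that is not the start of its gene entry. That of CTSF, at -123, lies outside the last 100 bases. Each stretch below ends at the base before the gene start and runs 5' to 3' on the gene's strand, with TCACGTG or CACGTGA in capitals (TCACGTGA where both overlap).
ATP6V0B (chr1:43974860-43974959, plus strand): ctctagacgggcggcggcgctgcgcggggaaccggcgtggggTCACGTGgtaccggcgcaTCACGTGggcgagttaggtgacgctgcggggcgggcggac
ATP6V0D1 (chr16:67481158-67481257, minus strand): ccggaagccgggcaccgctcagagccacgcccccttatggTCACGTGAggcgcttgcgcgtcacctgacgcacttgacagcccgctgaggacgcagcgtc
ATP6V1G1 (chr9:114587669-114587768, plus strand): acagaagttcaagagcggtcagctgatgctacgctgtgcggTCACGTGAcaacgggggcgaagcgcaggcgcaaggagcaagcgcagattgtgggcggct
CTSA (chr20:45891235-45891334, plus strand): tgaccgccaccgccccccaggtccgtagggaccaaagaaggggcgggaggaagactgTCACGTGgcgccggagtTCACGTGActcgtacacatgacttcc
CTSD (chr11:1763928-1764027, minus strand): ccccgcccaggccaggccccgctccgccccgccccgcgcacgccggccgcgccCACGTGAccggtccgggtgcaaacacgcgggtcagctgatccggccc
LAMP1 (chr13:113297039-113297238, plus strand): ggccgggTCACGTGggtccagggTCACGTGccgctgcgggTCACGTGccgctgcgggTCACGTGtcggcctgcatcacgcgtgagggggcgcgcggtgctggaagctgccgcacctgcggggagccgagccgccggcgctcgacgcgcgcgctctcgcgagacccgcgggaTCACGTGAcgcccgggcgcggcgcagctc
MCOLN1 (chr19:7522524-7522623, plus strand): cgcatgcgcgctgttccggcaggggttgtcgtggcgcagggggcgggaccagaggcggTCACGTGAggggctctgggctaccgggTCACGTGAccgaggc
The share compares symbols chosen for a lysosomal role with all genes, and a match is a description of letters, not of binding.

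The medians of the members with and without the motif lay close to each other. In the combination against control the 9 carriers had a median log2 difference of 0.04 (from -0.41 for MCOLN1 to 0.31 for CTSF) and the 19 measured members without the motif also 0.04. For ultrasound only against control the medians were 0.05 for the carriers and -0.03 for the 18 others measured. For Sonazoid only against control both were -0.09, where 1 carrier of 9, ATP6V0D1, and 6 of the 19 others lay above 0, against 380 of 730 genes of the array with the motif. Several carriers lay near 0: MCOLN1 at 0.00, ATP6V1G1 at -0.02, ATP6V0B at -0.08 and LAMP1 at -0.09. Each of these turned its sign under an alternative processing, while ATP6V0E2, CTSA and CTSD did not. CTSF, at 25.8 with Sonazoid only, lay near the floor. Over the genes of the whole array that held the motif the median was -0.01 in the combination against control (728 genes).

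Of the V1, V0 and cysteine cathepsin genes above 100, the V1 genes were the steadiest. Their median ratio of the highest to the lowest array was 1.11, against 1.26 for V0 and 1.19 for the cysteine cathepsins. Among these V1 genes the rotor shaft ATP6V1D and the catalytic ATP6V1A had the widest ranges, and the stalk genes ATP6V1G1 and ATP6V1E2 the narrowest. All 8 subunits of the V1 sector with signals above 100 stayed within 1.2-fold between their highest and lowest array on the brightest probe set. Some of their other probe sets spanned more. ATP6V1A, the catalytic subunit that binds ATP, had a signal of 1906 in the combination, 1616 with ultrasound only, 1821 with Sonazoid only and 1879 in control. ATP6V1B2, the ubiquitous B subunit that alternates with A in the ring, had 2208 in the combination, 2482 with ultrasound only, 2329 with Sonazoid only and 2324 in control. Both stayed within a narrow band, with ATP6V1A lowest and ATP6V1B2 highest after ultrasound only. ATP6V1G1, a subunit of the peripheral stalks, had the values 3056, 2984, 2917 and 2967 in the same order of arrays, a 1.05-fold range. ATP6V1E2, the testis-enriched form of the other stalk subunit, had 119.7, 121, 125 and 119 in that order, also a 1.05-fold range. Its dimmer probe set had 44.6 in the combination, 68.5 with ultrasound only, 78.2 with Sonazoid only and 78.8 in control. On that probe set the combination differed from control by log2 -0.82, against 0.01 on the brightest. The ubiquitous E1 form (ATP6V1E1) spanned 1.11-fold, the regulatory H subunit (ATP6V1H) 1.09-fold and ATP6V1C1 1.12-fold. For the combination against ultrasound only, the dimmer probe sets of ATP6V1C1 gave log2 0.28, 0.42 and 0.18, against 0.16 on the brightest. The dimmer one of ATP6V1G1 gave 0.33 for the combination against control, against 0.04 on the brightest.

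ATP6V1D, the central rotor shaft, differed between its probe sets. Its brightest probe set had 1446 in the combination, 1257 with ultrasound only, 1208 with Sonazoid only and 1388 in control. Its next one had 1097 in the combination, 1201 with ultrasound only, 1020.1 with Sonazoid only and 965 in control. The first was lower with ultrasound only than in control (log2 -0.14) and the next one higher (0.32); 2 dim ones, at or below 42.7, gave 0.19 and 0.21. Its departure from additivity (the combination minus Sonazoid only, less ultrasound only minus control) was 0.40 on the brightest probe set and was among the 3 largest of the bright members. On the next probe set the first of these differences was 0.11 and the second 0.32, so the departure had the other sign there. The same held for the dim one with -0.13 and 0.19. Other restricted forms of V1 subunits were dim. ATP6V1C2 had 2.47 in the combination, 19.8 with ultrasound only, 28.6 with Sonazoid only and 40.3 in control. Against control, ATP6V1C2 was at least 1.69-fold lower in the combination, and ATP6V1G2, a brain-enriched form, stood between 21.7 and 28.5. ATP6V1F, whose probe set names another gene as well, and ATP6V0A4 are not analysed here.

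Among the V0 genes, the ubiquitous d and e subunits and the ring subunit ATP6V0B stayed within 1.2-fold on their brightest probe sets. The ring subunit ATP6V0C and the alternative forms of a, d and e spanned wider ranges. ATP6V0D1, the ubiquitous d subunit that couples the ring to the rotor, had 1491 in the combination, 1449 with ultrasound only, 1532 with Sonazoid only and 1428 in control. The macrophage and osteoclast form of the same subunit, ATP6V0D2, had 27.6 in the combination, 27.4 with ultrasound only, 38.4 with Sonazoid only and 57.7 in control. It was the only member at 2-fold in any comparison with control, 2.09-fold lower in the combination and 2.10-fold lower with ultrasound only, with both ultrasound arrays just above the floor. Its second probe set, at or below 29.7, went the same way with log2 differences of -0.32 in both comparisons, which are limits set by the floor. In a bulk extract, fewer cells with a transcript and less of it per cell cannot be told apart.

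ATP6V0C encodes the proteolipid that forms most of the membrane ring. Its brightest probe set had 2285 in the combination, 2950.1 with ultrasound only, 2094 with Sonazoid only and 2222 in control, with the ultrasound-only array above the others. Its other probe set had 1089.8 in the combination, 1172 with ultrasound only, 956 with Sonazoid only and 1396 in control, with control above the others. The log2 difference of ultrasound only from control was therefore 0.41 on one and -0.25 on the other, so its probe sets did not share a direction. ATP6V0B, the second kind of ring subunit, had 6608 in the combination, 6606 with ultrasound only, 5614 with Sonazoid only and 5948 in control. Both arrays with ultrasound were above both without, by log2 0.15 against control and 0.24 against Sonazoid only, on its single probe set.

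The a subunits steer the pump to different membranes. ATP6V0A1, best known from neurons, was dim, with 44.6 in the combination, 28.8 with ultrasound only, 33.3 with Sonazoid only and 28.6 in control. The combination was 1.56-fold above control and 1.55-fold above ultrasound only; its other probe set had log2 differences of 0.10 and -0.27. ATP6V0A2, a form of the Golgi and endosomes, had 258 in the combination, 274 with ultrasound only, 347 with Sonazoid only and 288 in control. The Sonazoid-only array was highest, and the combination lay log2 -0.43 below it. Its 3 other probe sets gave -0.23, 0.19 and -0.55 for that comparison, so 1 of the 4 went the other way. ATP6V0E1, the ubiquitous small e subunit, spanned 1.13-fold on its brightest probe set. For ultrasound only against control that probe set gave log2 0.17 and the next brightest ones 0.07 and 0.08. The dimmer ones, at or below 101, ranged from -0.74 to -0.16. ATP6V0E2, its alternative form, had 248 in the combination, 348 with ultrasound only, 245 with Sonazoid only and 316 in control. Both arrays with Sonazoid were below both without, by log2 -0.49 against ultrasound only and -0.37 against control, on 1 probe set whose name ending marks possible binding to related transcripts.

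Of the accessory genes, ATP6AP1, which helps to assemble the pump, had 1995 in the combination, 2097 with ultrasound only, 1665 with Sonazoid only and 1977 in control. Only the Sonazoid-only array was apart from the others. ATP6AP2, the prorenin receptor and assembly factor, had 5101 in the combination, 5245 with ultrasound only, 5385 with Sonazoid only and 5602 in control, again a narrow band. The dim ATP6AP1L had log2 differences from control between 0.23 and 0.32. The divergent transcript ATP6AP1-DT, which is no subunit and enters by its symbol, had 1174 in the combination, 1182 with ultrasound only, 949 with Sonazoid only and 1034 in control. Its mean ultrasound difference over the pairs of arrays with and without Sonazoid was log2 0.25.

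**Figure D1:**
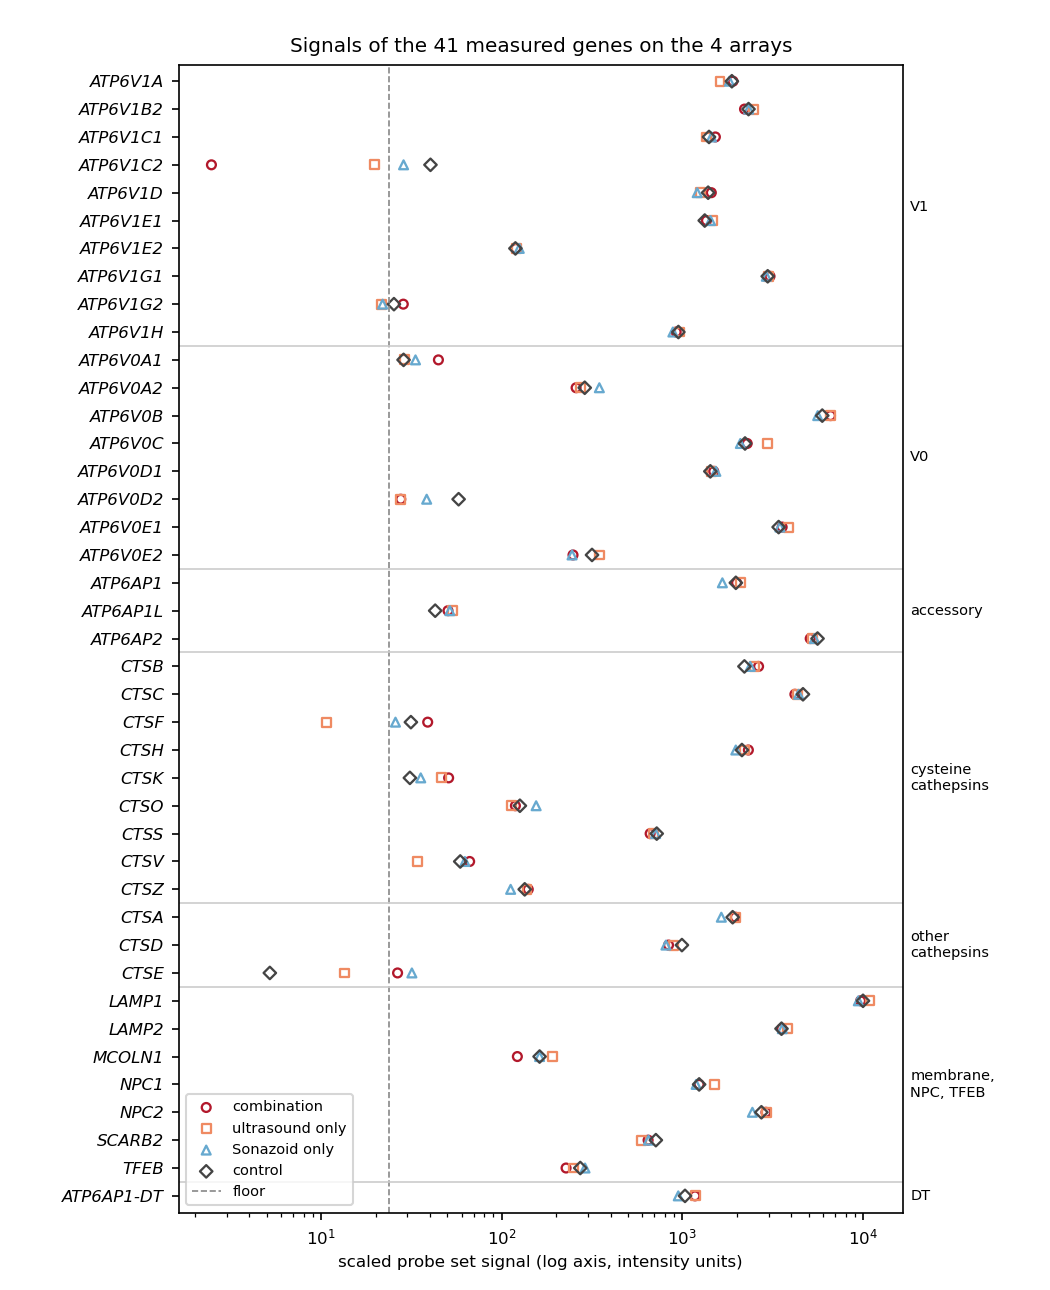
Scaled probe set signals (log axis, intensity units) of the 41 measured genes, 1 row per gene by role, with 1 symbol per array (combination, ultrasound only, Sonazoid only, control) and the floor of 23.8 as a dashed line. The symbols of bright genes overlap, and wide spreads occur at signals near or below the floor, as for ATP6V1C2, ATP6V0D2, CTSF and CTSE.

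The abundant cysteine cathepsins CTSB, CTSC, CTSH and CTSS were also close on the 4 arrays on their brightest probe sets. The dimmer CTSZ and CTSO spanned 1.25-fold and 1.37-fold. Among the cysteine proteases CTSC, which activates granule serine proteases, had 4196 in the combination, 4331 with ultrasound only, 4401 with Sonazoid only and 4652 in control. The 2 brightest probe sets of CTSC gave -0.15 and -0.12 (log2) for the combination against control, both small; with the values as deposited, and with the mean of probe sets, the sign turned. CTSS, an antigen-processing protease, spanned 1.09-fold and CTSH, an aminopeptidase, 1.17-fold. CTSB, a broad-acting endopeptidase, had 2641 in the combination, 2502 with ultrasound only, 2375 with Sonazoid only and 2205 in control. All 3 treated arrays were above control on that probe set, by log2 0.26, 0.18 and 0.11. Its 4 other probe sets ranged from -0.40 to 0.25 in the combination and from -0.18 to 0.57 with ultrasound only. CTSZ, a carboxypeptidase, had 140.2, 138, 112 and 134 in the order combination, ultrasound only, Sonazoid only and control, with the Sonazoid-only array lowest. CTSO had 119, 113, 155 and 126 in that order, with the Sonazoid-only array highest.

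Among the cysteine cathepsins the larger differences were those of CTSK, CTSV and CTSF, which were all dim. CTSK, the collagenase of osteoclasts, had 50.8 in the combination, 46.5 with ultrasound only, 35.6 with Sonazoid only and 31.0 in control. Both arrays with ultrasound exceeded both without, by log2 0.58 against control and 0.51 against Sonazoid only. CTSV, a close relative of CTSL best known from the thymus, had 66.4 in the combination, 34.3 with ultrasound only, 62.5 with Sonazoid only and 58.9 in control. The ultrasound-only array alone was low, 1.72-fold below control, and the combination was 1.93-fold above it. CTSF had 38.9 in the combination, 10.7 with ultrasound only, 25.8 with Sonazoid only and 31.4 in control, so the ultrasound-only array was below the floor. The combination was at least 1.63-fold above ultrasound only and 1.51-fold above Sonazoid only for CTSF.

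Of the proteases in other classes, CTSD, the main aspartic protease of lysosomes, had 838 in the combination, 895 with ultrasound only, 811 with Sonazoid only and 994 in control. Control was the highest of the 4 arrays, and the log2 differences of the treatments from it were -0.25, -0.15 and -0.29 in that order, on its single probe set. CTSA, the serine carboxypeptidase that protects lysosomal galactosidase and neuraminidase, had 1964, 1965, 1643 and 1898 in the order combination, ultrasound only, Sonazoid only and control. As for ATP6AP1, the Sonazoid-only array was the low one. CTSE, an aspartic protease of endosomes, was above the floor only with Sonazoid, at 26.5 in the combination and 31.8 with Sonazoid only, against 13.5 with ultrasound only and 5.20 in control.

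The lysosomal membrane genes included MCOLN1, the bright member with the widest spread. MCOLN1 had 122 in the combination, 190.5 with ultrasound only, 162 with Sonazoid only and 162 in control. The ultrasound-only array was the highest and the combination the lowest, 1.57-fold apart. The combination was 1.33-fold below control and 1.33-fold below Sonazoid only, and its departure from additivity was log2 -0.65, farthest from 0 among the bright members. Only 1 probe set measured it, so no other probe set checks these values. TFEB had 227 in the combination, 250.0 with ultrasound only, 289 with Sonazoid only and 272 in control. The combination was the lowest array, log2 -0.26 against control, but on the dimmer probe set of TFEB that difference was 0.03 and Sonazoid only was 0.56 above control.

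LAMP1, the major glycoprotein of the lysosomal membrane, had 9699.6 in the combination, 10941 with ultrasound only, 9421 with Sonazoid only and 9998 in control. The next brightest probe set gave -0.06, 0.01 and 0.02 (log2) for the 3 treatments against control in that order. The 2 dimmer ones gave -0.05, 0.19 and -0.50, and 0.15, -0.55 and -0.05. They share no direction with each other under ultrasound only. LAMP2, needed for fusion of lysosomes with autophagosomes, spanned 1.08-fold. NPC1, the membrane protein that passes cholesterol out of the lysosome, had 1239 in the combination, 1508 with ultrasound only, 1192 with Sonazoid only and 1238 in control. The ultrasound-only array alone was high, by log2 0.28 over control, while its 2 other probe sets above the floor, both dim, gave -0.13 and -0.42. NPC2, the soluble partner that hands cholesterol to NPC1, had 2902, 2926, 2441 and 2738 in the order combination, ultrasound only, Sonazoid only and control, again with the Sonazoid-only array lowest. SCARB2, the receptor that brings glucocerebrosidase to lysosomes, had 646, 595, 649 and 713 in that order, with control highest; its 3 other probe sets gave log2 differences of ultrasound only from control between -0.31 and -0.02, against -0.26.

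The comparisons count a gene as higher or lower at 1.5-fold. In the combination against control, the contrast that the series was named for, 2 of 41 members were higher (ATP6V0A1 and CTSK) and 2 lower (ATP6V0D2 and, as a bound, ATP6V1C2). Of all 12962 genes measured in that comparison 5.87% were higher and 4.67% lower. All 4 of these members were dim, below 60 on each array, and with a floor of 50 none of them reached 1.5-fold. The median log2 difference was 0.03 over the members and 0.00 over all genes.

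With ultrasound only against control 0 of 40 members were higher, where 6.75% of all genes were, and 3 were lower (ATP6V0D2, ATP6V1C2 and CTSV), where 4.03% were; CTSK lay just under the threshold, at log2 0.58. With Sonazoid only against control 0 of 41 were higher against 3.96% of all genes, and ATP6V0D2 alone was lower against 4.29%. Adding Sonazoid to ultrasound (the combination against ultrasound only) gave 3 higher members of 40 (ATP6V0A1, CTSF and CTSV; 4.36% of all genes) and 1 lower (MCOLN1; 5.88%). Adding ultrasound to Sonazoid (the combination against Sonazoid only) gave 1 higher member of 41, CTSF, where 5.85% of all genes were higher, and 0 lower, where 4.36% were. MCOLN1 was the only member above 100 on all arrays among all these counts. The comparisons against control share the control array, so their counts are given side by side only.

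**Figure D2:**
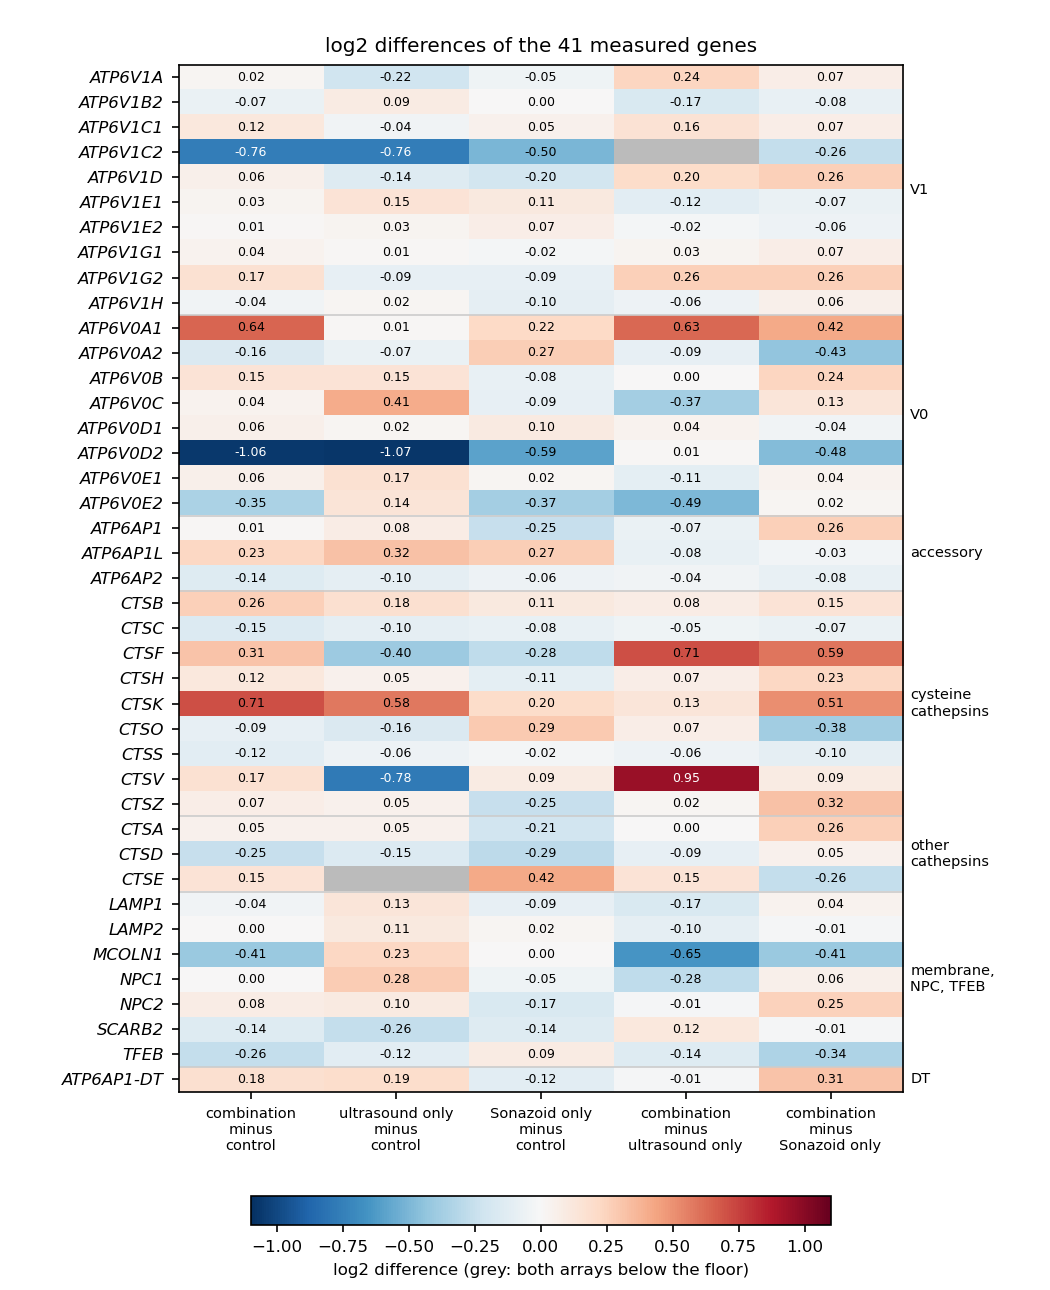
The log2 differences of the 41 measured genes (rows, by role) in the 5 comparisons (columns), with blue for lower and red for higher in the first-named group and grey where both arrays were below the floor. Most cells lie near 0, and the deep colours are those of ATP6V0D2, ATP6V1C2, CTSV, CTSK, CTSF, ATP6V0A1 and MCOLN1.

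The ultrasound difference was measured in 2 pairs of arrays that share none: ultrasound only against control, and the combination against Sonazoid only. At 1.2-fold or more the same way in both, CTSK was higher and ATP6V0D2 lower, 1 member each of 40, where 6.56% of 12009 genes were higher and 4.60% lower in both. For Sonazoid, in the pairs Sonazoid only against control and the combination against ultrasound only, 0 of 40 members were higher in both, where 3.27% of 12061 genes were, and 1 was lower, ATP6V0E2, where 4.29% were. The bright members with the largest mean ultrasound difference were ATP6V0C and CTSO, at log2 0.27 and -0.27, and ATP6AP1-DT, ATP6V0A2, TFEB and ATP6V0B followed at 0.25, -0.25, -0.23 and 0.19. None of these 6 reached 1.2-fold in both pairs. ATP6V0C was at 0.13 with Sonazoid present and 0.41 without it, CTSO at -0.38 and -0.16, and TFEB at -0.34 and -0.12. These are values of the brightest probe sets. The other probe set of ATP6V0C gave 0.19 with Sonazoid present and -0.25 without it, and that of TFEB -0.53 and 0.26. On these the 2 pairs went opposite ways.

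**Figure D3:**
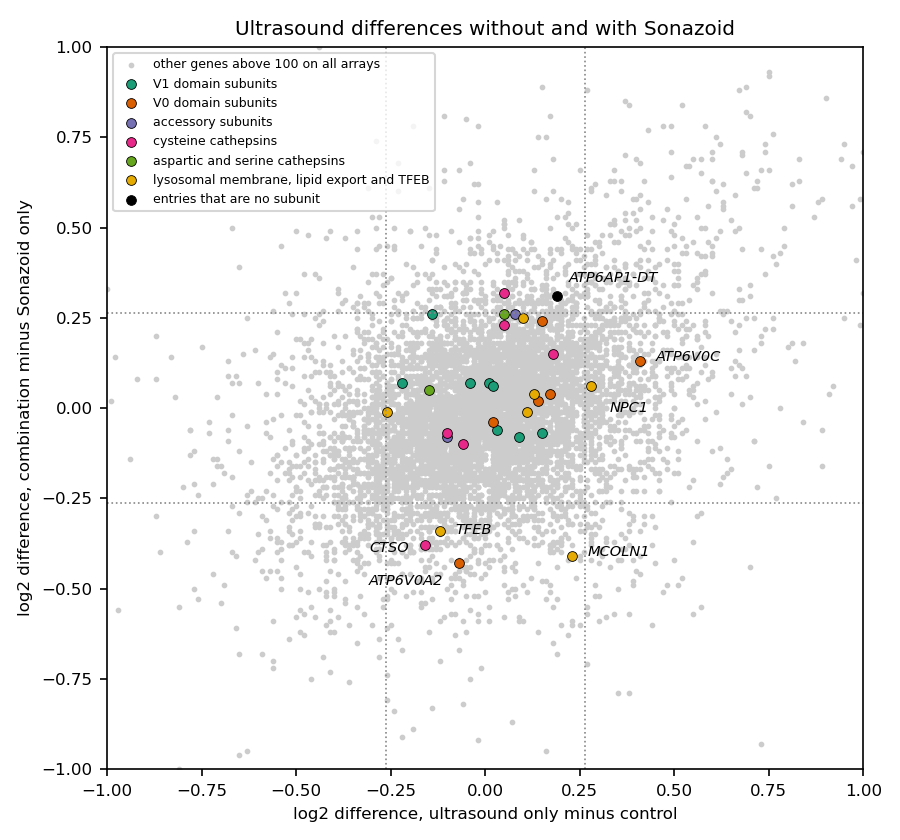
Each point is a gene above 100 on all 4 arrays, with the log2 difference of ultrasound only from control on the x axis and of the combination from Sonazoid only on the y axis; members are coloured by role, other genes are grey, dotted lines mark 1.2-fold, and 55 genes (0 members) lie beyond the axes. No coloured point lies outside the dotted lines on both axes in the same direction, and MCOLN1 stands at the lower right at 0.23 and -0.41.

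Across all treatments the median range of the bright members was close to that of all bright genes. The ratio of the highest to the lowest of the 4 arrays had a median of 1.19 over the 32 members above 100, from 1.05 to 1.57, and of 1.21 over 8084 genes above 100, with a highest value of 15.3. Of the 32 members 21 (65.6%) stayed within 1.2-fold, against 46.4% of those genes. Signal strength moves with this measure: of the 21 members with a mean signal of 1000 or more 17 (81.0%) stayed within 1.2-fold, against 66.7% of 2757 genes that bright. Of the 7 members with mean signals from 100 to 300, 1 did (14.3%), against 25.0% of 2183 genes. The part of signal strength in the members' larger share within 1.2-fold was not tested further.

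The small differences were not spread evenly over the arrays. Of the 32 bright members 14 had their highest value with ultrasound only (43.8%, against 31.3% of all bright genes) and 15 their lowest with Sonazoid only (46.9%, against 23.9%). Among those lowest with Sonazoid only were ATP6AP1, CTSA, CTSH, CTSZ, NPC1, NPC2 and LAMP1. The median log2 difference of the bright members from control was -0.06 with Sonazoid only, with 11 of 32 above 0, and that of the 8084 bright genes was 0.00, with 4042 above 0. Over all measured members that median was -0.05, against 0.00 over all measured genes. With the values as deposited it was 0.04, but that of all genes rose to 0.09, so the members still lay below. With gene-specific probe sets it was 0.01, as was that of all genes. With quantile normalisation 14 were still lowest with Sonazoid only (43.8%, against 22.1%), but with the values as deposited 8 were (25.0%, against 12.9%) and 4 were highest with ultrasound only (12.5%, against 10.5%). With gene-specific probe sets 8 of 23 were lowest with Sonazoid only (34.8%, against 21.2%), but 8 of 23 were also highest there (34.8%, against 26.6%), and 10 were highest with ultrasound only (43.5%, against 28.1%). With that choice the members were no more often lowest than highest with Sonazoid only.

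Pairs of probe sets of 1 gene give an internal check on these arrays. Both come from the same RNA and may bind different or related transcripts. Their gap is therefore not technical error alone, and it leaves out the error between extracts. For 14 members the 2 brightest probe sets were both above 100 on all arrays. In the combination against control the gap between them had a median of log2 0.08, the brightest alone had a median size of 0.09, and 13 of 14 had the same sign (92.9%, against 64.0% of 3409 genes). For ultrasound only against control the gap was 0.11 and the size 0.12, with 11 of 14 of the same sign (78.6%, against 59.4%). For Sonazoid only against control the gap was 0.14 and the size 0.07, with 5 of 14 of the same sign (35.7%, against 55.7%). In 0 of the 14 genes did both probe sets differ by 1.2-fold the same way in any of the 5 comparisons. Of the 3409 genes between 42 (Sonazoid only against control) and 246 (ultrasound only against control) did, so a count of 0 among 14 says little about the members. In these comparisons the gap between the probe sets of 1 gene was close to the difference itself, or larger.

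**Figure D4:**
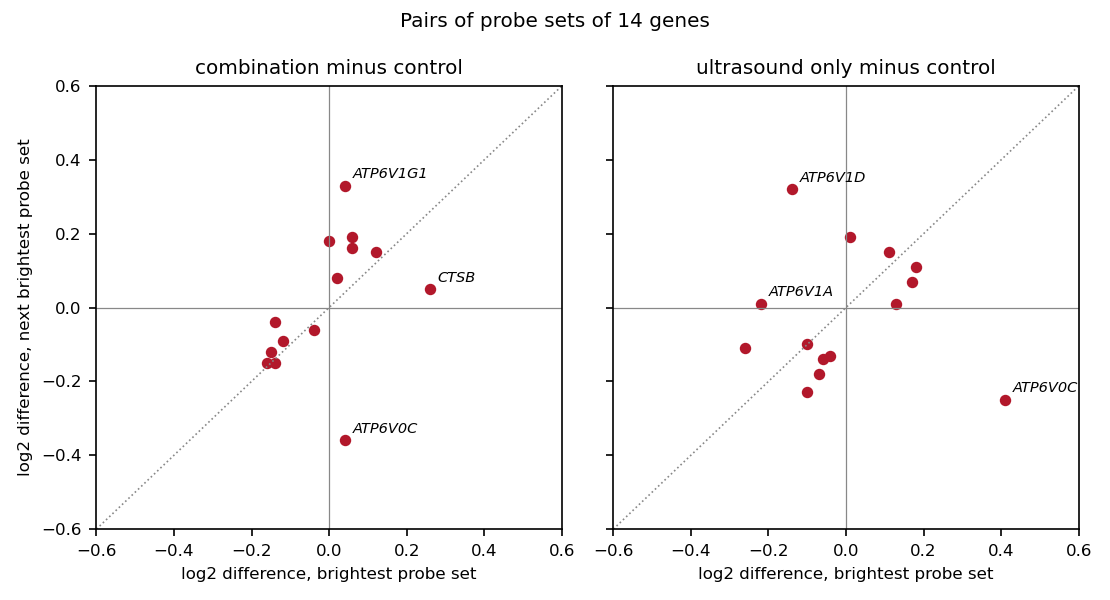
The log2 difference on the brightest (x axis) and next brightest (y axis) probe set of 14 genes, for the combination minus control (left) and ultrasound only minus control (right), with equal values on the dotted line. ATP6V0C and ATP6V1D lie far from the line, at 0.41 and -0.25 and at -0.14 and 0.32 with ultrasound only.

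The rest of the lysosomal pathway was counted by 9 lists. They held 119 genes of the array, and 114 were measured in the combination against control, and 5 were higher and 5 lower at 1.5-fold (4.39% each, against 5.87% and 4.67% of all genes), so the total was not above that of the array. The counts of single lists below are small and are read against the same shares. Among 24 measured hydrolases 1 was higher, IDS, the sulfatase that starts the breakdown of heparan and dermatan sulfate, and 2 were lower (ARSB and, as a bound, SGSH); the list median was 0.00. IDS had 778 in the combination, 948 with ultrasound only, 427 with Sonazoid only and 440.1 in control, so both arrays with ultrasound were above both without. Its log2 differences were 1.11 for ultrasound only against control and 0.87 for the combination against Sonazoid only. The 5 other IDS probe sets above the floor on all arrays ranged from 0.99 to 1.54 and from 0.92 to 1.33 in these 2 comparisons.

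Of the MiT/TFE and lysosomal mTORC1 genes 3 of 17 were higher in the combination than in control and 0 lower, with a median of 0.10. They were TFE3, the TFEB relative, at 559 in the combination, 532 with ultrasound only, 406 with Sonazoid only and 354 in control, and the dim RRAGB (1.67-fold) and FNIP1 (at least 1.90-fold). The 2 other TFE3 probe sets gave -0.15 and 0.58 (log2) against 0.66, so they do not agree. Among 11 galectin and damaged-lysosome genes 1 was higher, LGALS3, the galectin that gathers on broken lysosomes, with 2186 in the combination, 2025 with ultrasound only, 1356 with Sonazoid only and 1368 in control. Both arrays with ultrasound exceeded both without, by log2 0.57 and 0.69, on the 1 probe set measured.

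Of the delivery genes GGA1, an adaptor that sorts mannose 6-phosphate receptors, was the 1 of 8 at 1.5-fold, with 721 in the combination, 989 with ultrasound only, 926 with Sonazoid only and 1153 in control. Another probe set of nearly equal signal gave log2 -0.50 against -0.68, 2 dimmer ones gave -0.61 and -0.27, and 1 at or below 82.1 gave 1.36. Of 22 other lysosomal membrane genes 0 were higher and 2 lower, the iron and manganese transporter SLC11A1 (1.80-fold, dim) and the channel TPCN2 (1.57-fold). Their other probe sets disagree: for SLC11A1 they gave log2 0.36, 0.23 and -0.93, and for TPCN2 -0.59, 0.09 and 0.29. Among 7 V-ATPase genes outside the symbol rule none reached 1.5-fold in the combination against control; TCIRG1, the a3 subunit of macrophages and osteoclasts, had 155 in the combination, 172 with ultrasound only, 121 with Sonazoid only and 121 in control. Of 17 autophagy genes 0 reached it, and of 6 measured cathepsin inhibitors also 0. In the combination against control the sphingolipid activators PSAP and GM2A stood at log2 0.36 and 0.13. Another PSAP probe set gave 0.22, and the other GM2A probe sets ranged from -0.29 to 0.15.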

How the data were processed

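Per the labels' protocols, total RNA of U937 cells was treated with DNase, amplified from the 3' end, labelled with biotin and hybridised to U133 Plus 2.0 arrays. The deposited values are linear intensity values of 54675 probe sets, from 0.0486 to 21728; their software is not given in the sources used. Trimmed means (2% off each end) of the deposited arrays differed 1.16-fold, and 1 factor per array brought all to the mean of the 4: 0.923 for the combination, 1.07 for ultrasound only, 0.977 for Sonazoid only and 1.04 for control. Values below 23.8 were set to it before log2, and a difference with 1 side there is a bound. Symbols came from the platform annotation for 41097 probe sets with 1 symbol, updated by Entrez identifier for 41043; the brightest probe set by mean signal stood for a gene. Signals on all 4 arrays are given for members at 1.5-fold in any comparison, the 6 with the largest mean ultrasound difference, the 3 with the largest departure from additivity, 5 fixed genes, and others by role. Of each pathway list at most the 3 genes farthest from 0 are named. Members and lists were chosen with earlier results of these data known. Alternatives were no scaling, quantile normalisation, floors of 50 and 100, other probe set choices and 2-fold. The steps (Python 3.11.15, pandas 2.3.3) were tested on simulated data.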

Additional observations from a re-analysis of the deposited data

How the results depend on the processing

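The values are single arrays, so no replicate could be left out. Counts of dim members depended on the floor. In the combination against control the 2 higher members became 0 with a floor of 50, 0 with a floor of 100 and 0 at 2-fold, and 1 with the mean of probe sets or with gene-specific probe sets; the 2 lower became 0 with either floor and 1 at 2-fold. The 3 lower with ultrasound only became 0 with either floor and 1 at 2-fold. The 1 lower with Sonazoid only became 0 with the values as deposited, quantile normalisation, either floor, the mean of probe sets and 2-fold. In the combination against ultrasound only the 3 higher became 0 with either floor and at 2-fold, and the 1 lower (MCOLN1) became 0 with the values as deposited (log2 -0.43), at 2-fold and with gene-specific probe sets, where MCOLN1 has none. In the combination against Sonazoid only the 1 higher became 2 with the values as deposited and 0 with quantile normalisation, either floor, gene-specific probe sets and 2-fold. For ultrasound in both pairs the 1 higher became 0 with either floor, gene-specific probe sets and 1.5-fold; the 1 lower became 2 with the values as deposited, quantile normalisation and gene-specific probe sets, and 0 with either floor and at 1.5-fold. For Sonazoid in both pairs the 0 higher became 4 with the values as deposited, and the 1 lower became 0 with gene-specific probe sets and at 1.5-fold. The stricter floors and folds remove members by construction; the cause of the other changes was not tested. The other 56 recomputed counts stayed within 1.5 times, the recomputed medians lay between log2 -0.06 and 0.21, and no member counted at 1.5-fold turned its sign under an alternative. The values as deposited raised the median of all genes by log2 0.16 in the combination against control and by 0.19 in the combination against ultrasound only, and turned the sign of small differences such as those of CTSC, ATP6AP2 and LAMP1 in the combination against control.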
